A study of Mus musculus with 33 samples.

Results

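Tregs sorted from tolerated islet xenografts were compared with CD127hi Tregs sorted from the spleen of tolerant mice, over all genes. The comparison used the 3 libraries titled graft Tregs and the 3 titled SP/CD127hi Tregs, 6 of the 33 bulk RNA-Seq libraries in the study, and the groups were taken from the titles. All mice were DEREG mice on a C57BL/6 background, which carry the diphtheria toxin receptor and enhanced GFP under the Foxp3 promoter, so that GFP marks Foxp3+ cells. Both groups came from tolerant recipients, which had 4000 islet equivalents of porcine neonatal islet cell clusters (NICC), cultured for 6 days, placed under the renal capsule. These recipients were treated with repeated doses of 500 µg of MR-1, an antibody that blocks CD154, and 1 dose of 500 µg of CTLA4-Fc, and their cells were taken at day 100. Graft Tregs were sorted as CD4+GFP+ cells without regard to CD127, whereas SP/CD127hi Tregs were sorted as CD4+GFP+ cells with high CD127. Tissue and gate therefore differ together between the groups, and their parts in any difference cannot be told apart. Libraries were made from cells of pooled mice. From the stated pool sizes and number of tolerant mice, the 2 groups would have mice in common, but which pools share mice is not given in the sources used here. The fit treated all libraries as independent. Its p-values rest on a spread between libraries of a subset that was estimated over all 33 libraries, not over the 6 compared alone.

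Tregs are CD4+ T cells that hold immune responses in check and depend on the transcription factor Foxp3. In nonlymphoid tissue they often carry the IL-33 receptor ST2 (Il1rl1) and the lectin-like receptor Klrg1, and lose genes of recirculation such as Ccr7. CD127, the alpha chain of the IL-7 receptor (Il7r), is low on most Tregs of lymphoid organs and high on conventional memory T cells. The design asks how close Tregs of the tolerated graft are to splenic CD127hi Tregs. In bulk libraries, fewer cells of a type and less RNA per cell cannot be told apart.

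The gate genes and the markers of tissue Tregs did not separate the groups. Values are given as CPM, a gene's count relative to the size of its library, after TMM scaling, a normalization that sets the typical gene equal across libraries. Foxp3 was 529, 599.6 and 672 CPM in graft Tregs and 464, 425 and 574 CPM in SP/CD127hi Tregs. The log2 fold change, here always graft Tregs minus SP/CD127hi Tregs, was 0.30 ± 0.55 (SE) with an adjusted p of 1, and the groups overlapped. EGFP, which is read from the same promoter, was 91.5, 74.9 and 67.9 CPM in graft Tregs and 127, 75.6 and 149 CPM in SP/CD127hi Tregs, and the groups overlapped. Il7r was 1165, 694 and 739 CPM in graft Tregs, which were not sorted on it, and 1236, 1082 and 1198 CPM in SP/CD127hi Tregs, which were. Its log2 fold change of -0.44 ± 0.36 had an adjusted p of 0.759, with 1 graft library within the range of the spleen. For reference, Il7r averaged 311 ± 45.6 CPM (SD, n = 3) in SP/CD127-/lo Tregs, the splenic Tregs of tolerant mice sorted for absent or low CD127, and 543 ± 108 CPM (n = 3) in SP/naive Tregs of mice without a transplant.

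Il1rl1 was 475, 126 and 131 CPM in graft Tregs and 147, 114 and 237 CPM in SP/CD127hi Tregs. Its log2 fold change was 0.55 ± 1.01 (adjusted p = 1), and without graft library 1 it was -0.37. Klrg1 was 168, 32.7 and 206 CPM in graft Tregs and 144, 129 and 187 CPM in SP/CD127hi Tregs. Its log2 fold change was -0.18 ± 1.08 (adjusted p = 1), and without graft library 2 it was 0.29. Both genes overlapped between the groups, and for both the sign turned on 1 library. In SP/CD127-/lo Tregs, Il1rl1 averaged 9.36 ± 6.58 CPM and Klrg1 43.3 ± 36.6 CPM (n = 3 each).

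The libraries had between 3312714 and 4615283 read pairs on genes. Graft libraries detected fewer genes, with 11620, 12658 and 13838 genes having a read against 14709, 16628 and 14475 in SP/CD127hi libraries. The 100 genes with the most reads took 29.1% ± 2.06 (SD, n = 3) of the reads in graft libraries and 24.7% ± 1.89 in SP/CD127hi libraries, and these groups did not overlap (exact permutation test, 2-sided, p = 0.1). The exact permutation test gave the same p of 0.1 for genes with a read, and with 3 libraries against 3 it cannot give a smaller one. The share of unmapped read pairs was 7.83% ± 0.672 in graft libraries and 10.7% ± 2.12 in SP/CD127hi libraries (exact permutation test, p = 0.1), and the share without an annotated gene was 30.9% ± 5.14 and 30.4% ± 2.63 (p = 1). With the smaller number of detected genes, 8192 of the 25347 genes tested had no read in any graft library, against 5704 with none in any SP/CD127hi library.

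Of 25347 genes tested, 26 were DEGs at an adjusted p under 0.05, which is 0.103% of all. In graft Tregs 10 rose, 0.0395% of all genes, and 16 fell, 0.0631% of all. The DEGs that rose were Kap, mt-Cytb, mt-Nd1, Malat1, Ifngas1, Klrk1, AW112010, Ikzf2, Ccl8 and mt-Nd2. The DEGs that fell were Iglc2, Ms4a1, Jchain, Serpinb1a, Plek, Mef2c, Tmem185a, Ighd, Hbb-bs, Rnase6, Gcsh, Mapk11, Gzma, Iqsec1, Siglecg and Naf1. The directions differed in kind. Among those that rose, 6 were read in all 6 libraries, and 4 had at most 3 reads in every SP/CD127hi library. Among those that fell, 14 had at most 3 reads in every graft library, 7 of these had none, and Ighd was the one gene read in all 6 libraries. Of the 10 that rose, the likelihood ratio test called 3 and DESeq2 2, and of the 16 that fell each called 12. The number of calls turned on the model, with 1 call (Kap) when the 6 libraries were fitted alone and 0 when genes needed 10 reads in 3 libraries. The model held libraries of draining lymph nodes (DLN), which were sequenced on another instrument than spleen and graft. With the 24 spleen and graft libraries alone, 27 genes were called, 4 higher and 23 lower, and 12 of them were among the 26. At an unadjusted p under 0.05 the fits with 1 and 0 calls gave 1042 (7.50% of the 13886 tested) and 1363 genes (10.4% of 13110), against 2213 as reported (8.73% of 25347, with 3.42% higher in graft Tregs), and DESeq2 called 253 of the 13466 genes it gave an adjusted p (1.88%), of which 59 were higher in graft Tregs (0.438%).

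**Figure D1:**
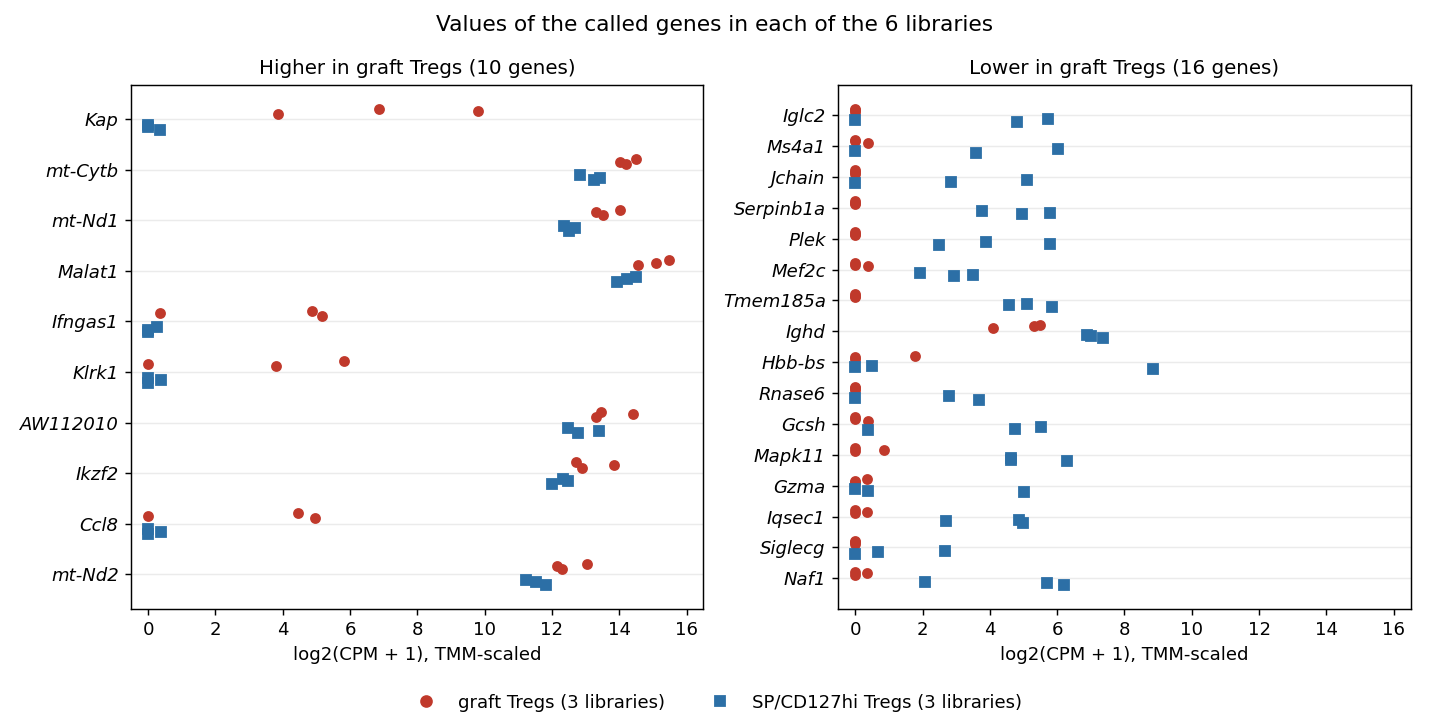
Values of the 26 called genes in each of the 6 libraries, as log2(CPM + 1), with the 10 that rose in graft Tregs on the left and the 16 that fell on the right, ordered by adjusted p. Circles are graft libraries and squares SP/CD127hi libraries. The mitochondrial genes, Malat1, AW112010 and Ikzf2 are high in all 6 libraries, while most of the genes on the right lie at or near 0 in the graft libraries, and Hbb-bs and Gzma are raised in 1 SP/CD127hi library each.

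Among the DEGs that rose, 6 had a mean of at least 1000 CPM. All 6 lost their calls in the likelihood ratio test (adjusted p = 0.428 to 0.661), in DESeq2 (0.053 to 0.381), under the stricter filter (0.286 to 0.393) and with the 6 libraries alone (0.102 to 0.52). With the 24 spleen and graft libraries their log2 fold changes were 0.82 to 1.08, and the calls were lost there too (adjusted p = 0.0761 to 0.281). Of these, 3 encode subunits of the respiratory chain on the mitochondrial genome (chromosome M of GRCm38). The gene mt-Cytb (M, 14145 to 15288), cytochrome b of complex III, had 23009, 16536 and 18898 CPM in graft Tregs and 7338, 10953 and 9748 CPM in SP/CD127hi Tregs. All graft libraries lay above all SP/CD127hi libraries, with a log2 fold change of 1.06 ± 0.18 (adjusted p = 3.46e-05). The complex I subunit mt-Nd1 (M, 2751 to 3707) had 16483, 10062 and 11730.0 CPM against 5244, 6614 and 5831 CPM, a log2 fold change of 1.11 ± 0.19 (adjusted p = 4.72e-05). The complex I subunit mt-Nd2 (M, 3914 to 4951) had 8475, 4563 and 5012 CPM against 2404, 2958 and 3628 CPM, a log2 fold change of 1.01 ± 0.24 (adjusted p = 0.0483). The groups of these genes did not overlap. In the model of 33 libraries the calls for mt-Cytb and mt-Nd1 held without any 1 library, whereas mt-Nd2 lost its call without graft library 1 (adjusted p = 0.481), SP/CD127hi library 1 (0.248) or SP/CD127hi library 2 (0.0827).

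The other mitochondrial genes had the same sign in most cases. Of 12 mitochondrially encoded protein genes tested, 3 were called, 11 had a log2 fold change above 0, and the median was 0.89 against 0 over all genes tested. Of the 8 with a mean of at least 50 CPM, all were above 0, with a median of 0.94 against 0.05 over the 4102 genes at that level. The cytochrome c oxidase subunit mt-Co1 had 14206, 10379 and 11980.3 CPM against 6733, 8839.6 and 6462 CPM (0.73 ± 0.19, adjusted p = 0.072), and mt-Nd4 had 7576, 4216 and 4877 CPM against 2407, 2880.4 and 3755 CPM (0.88 ± 0.24, adjusted p = 0.127). Both sets of libraries stood apart, although neither gene passed. The lowest values among abundant members were those of mt-Nd5 (0.52) and mt-Nd6 (0.38). Reads of mt-Co2, mt-Co3, mt-Atp6 and mt-Atp8 were at or under 16.2 CPM in every library, and their reads can be lost to near-identical nuclear copies, so their levels are uncertain.

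Mitochondrial genes took 6.74%, 4.33% and 5.30% of the reads on genes in graft libraries and 2.71%, 3.53% and 3.20% in SP/CD127hi libraries (exact permutation test, 2-sided, p = 0.1, the smallest possible). The subunits of the same complexes that are encoded in the nucleus were closer together. Of 42 nuclear oxidative phosphorylation genes tested, 0 were called by edgeR and 1 had an unadjusted p under 0.05. Their median log2 fold change was 0.19, with 32 above 0, 7 whose graft libraries all lay above the spleen and 1, Cyc1, whose graft libraries all lay below it. Of all genes with a mean of at least 50 CPM, 10.6% stood apart higher and 8.34% lower. DESeq2 called none of the 42 nuclear oxidative phosphorylation genes. The highest was Uqcrc1, a core subunit of complex III, with 221, 105 and 25.6 CPM against 42.2, 22.6 and 35.9 CPM (1.8, adjusted p = 0.429), and the lowest Cyc1, cytochrome c1, with 68.8, 56.3 and 83.1 CPM against 95.3, 118 and 179 CPM (-0.91, adjusted p = 0.759).

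Malat1 (chromosome 19, 5795690 to 5802672), a nuclear long noncoding RNA, rose from 23208, 19264 and 15553 CPM in SP/CD127hi Tregs to 45886, 34734 and 24011 CPM in graft Tregs. The log2 fold change was 0.85 ± 0.15 (adjusted p = 9.3e-05), and the groups did not overlap. The call held without any 1 library but was lost in the likelihood ratio test (adjusted p = 0.661) and DESeq2 (0.381). Among other Tregs of the study, Malat1 averaged 9609 ± 3797 CPM in the SP/CD127-/lo subset and, in SP/naive Tregs, 47593 ± 25795 CPM, a wide spread around a mean above that of the graft (graft minus SP/naive Tregs -0.45, adjusted p = 0.33). Other nuclear noncoding RNAs were not called. Neat1, of nuclear paraspeckles, had 566, 374 and 595 CPM against 485, 557 and 563 CPM (-0.07), and Kcnq1ot1 469, 338 and 296 CPM against 441, 611 and 511 CPM (-0.50, adjusted p = 0.759).

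Ikzf2 (chromosome 1, 69531214 to 69687245) encodes Helios, an Ikaros family factor of Tregs. It had 6713, 14612 and 7632 CPM in graft Tregs and 5152, 5725 and 4135 CPM in SP/CD127hi Tregs, a log2 fold change of 0.95 ± 0.22 (adjusted p = 0.0391). The groups did not overlap, but graft library 2 stood well above the other 2, and its removal left a log2 fold change of 0.52 (adjusted p = 0.478). The call was also lost without SP/CD127hi library 3 (adjusted p = 0.071). SP/CD127-/lo Tregs had 7523 ± 3223 CPM and SP/naive Tregs 4574 ± 1138 CPM (n = 3 each). The transcript AW112010 (chromosome 19, 11047612 to 11055808), annotated as a long intergenic noncoding RNA, had 11203, 21736 and 10049 CPM against 5759.8, 10769 and 7061 CPM. Its log2 fold change was 0.87 ± 0.19 (adjusted p = 0.0181), with graft library 3 below SP/CD127hi library 2. Without graft library 2 it was 0.43 (adjusted p = 0.531), and without SP/CD127hi library 1 the adjusted p was 0.13.

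Kap (chromosome 6, 133849851 to 133853762), the kidney androgen-regulated protein of the proximal tubule, had 114, 887 and 13.4 CPM in graft Tregs and 0, 0 and 0.289 CPM in SP/CD127hi Tregs. The ratio of summed reads was 3955, with an exact 95% interval of 709 to 156245 that covers counting error only, since the SP/CD127hi libraries held 1 read in all. The adjusted p was 3.3e-05, without graft library 2 it was 0.212, and by DESeq2 0.496. Kap had no read in SP/CD127-/lo or SP/naive Tregs, or in CD127hi or naive Tregs of the DLN, and it averaged 0.514 ± 0.499 CPM (n = 3) in DLN/CD127-/lo Tregs. Other kidney genes stood with it. The list of 16 kidney tubule markers summed to 254, 1019 and 59.3 CPM in graft libraries and 7.43, 8.57 and 4.34 CPM in SP/CD127hi libraries. Fxyd2, a regulator of the sodium pump in the tubule, had 16.8, 76.6 and 28.9 CPM against 0, 0.306 and 0 CPM, and was not called (adjusted p = 0.185).

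Akr1c21, a hydroxysteroid dehydrogenase, had 0.812, 63.1 and 107 CPM against 0 in all 3 (at least 70.4-fold higher at a floor of 3 reads per library, adjusted p = 0.102). Acy3, an aminoacylase, had 44.7, 29.6 and 37.8 CPM against 0 in all 3 (at least 46.3-fold higher, adjusted p = 0.13). Several markers that define tubule segments were near 0, with Umod, Slc34a1, Lrp2 and Aqp1 at 1.49 CPM or less in every graft library, while Slc12a3, the cotransporter of the distal tubule, reached 25.5 CPM in graft library 1. Of the 16 kidney genes 1 was called and 12 had a log2 fold change above 0, and the graft lies under the renal capsule. The part of kidney RNA in the other results was not tested.

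The 3 further DEGs that rose were on in some graft libraries and absent in others. Ifngas1 (chromosome 10, 118502035 to 118556525), a long noncoding RNA beside the interferon gamma gene, had 28.2, 0.274 and 34.9 CPM against 0.212, 0 and 0 CPM (ratio of summed reads 237, interval 42.2 to 9416, adjusted p = 0.0113). The reads do not carry strand, so those of overlapping genes on the other strand cannot be told apart. It averaged 16.4 ± 10.2 CPM in the SP/CD127-/lo subset and 12.8 ± 1.59 CPM in SP/naive Tregs, above all SP/CD127hi libraries. Klrk1, the activating receptor NKG2D, had 55.5, 0 and 12.8 CPM against 0, 0.306 and 0 CPM (ratio 265, interval 47.2 to 10514, adjusted p = 0.0116). Ccl8, a chemokine made mainly by myeloid cells, had 21.1, 0 and 30.4 CPM against 0, 0.306 and 0 CPM (ratio 192, interval 34.1 to 7643, adjusted p = 0.0483). Its call was lost in the likelihood ratio test (adjusted p = 0.0612) and DESeq2 (0.435). Neither Klrk1 nor Ccl8 was confined to the graft. In DLN/CD127hi Tregs, Ccl8 averaged 315 ± 269 CPM and Klrk1 22.002 ± 24.7 CPM, both with a wide spread. In SP/CD127-/lo and SP/naive Tregs their means were at most 0.0977 CPM. The paper lists both genes among DEGs of DLN CD127hi Tregs and graft Tregs.

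Graft library 2 had 1 read of Ifngas1 and none of Klrk1 and Ccl8, and the SP/CD127hi libraries had 1 read or none of each. None of the calls held in every fit without 1 library. Ifngas1 lost its call without SP/CD127hi library 2 or 3 (adjusted p = 0.0645 and 0.0919), Klrk1 without SP/CD127hi library 1 or 3 or graft library 1 (0.0993, 0.0873 and 0.156), and Ccl8 without SP/CD127hi library 1 or 3 or graft library 3 (0.184, 0.199 and 0.0832).

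**Figure D2:**
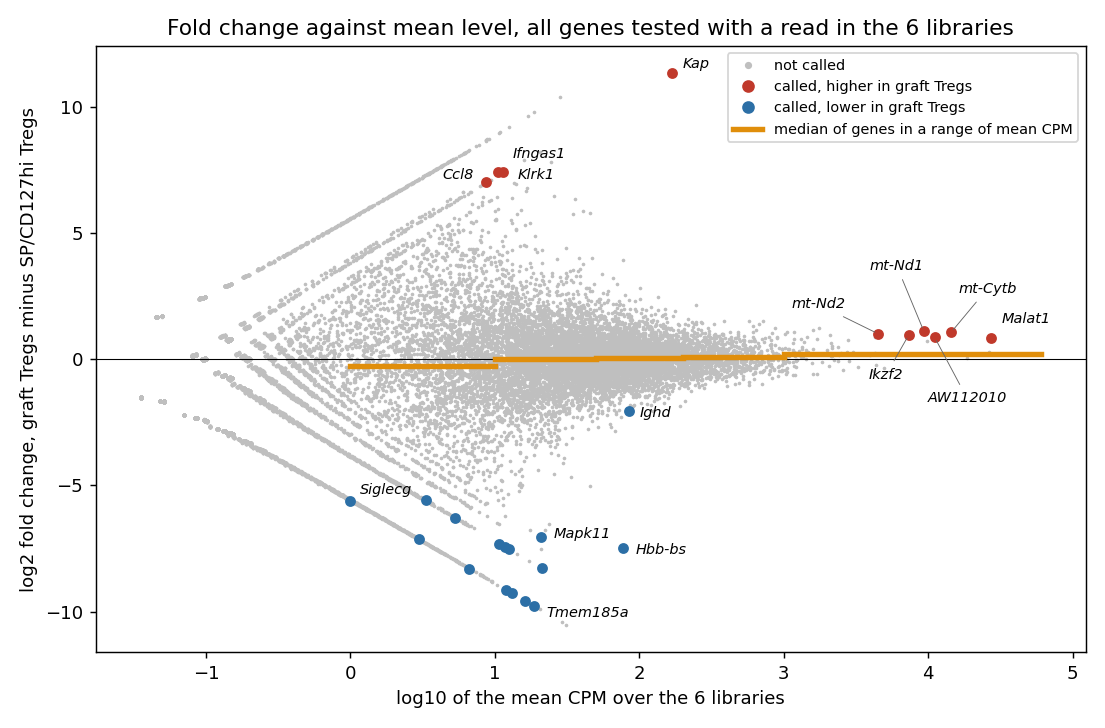
Log2 fold change, graft Tregs minus SP/CD127hi Tregs, against the log10 of the mean CPM over the 6 libraries, for genes tested that had a read in them. Red and blue points are genes called higher and lower, and orange bars are medians within a range of mean CPM. Most called genes sit at the right, where levels are high and differences near 1, or in the streaks, where 1 group has almost no reads. Ighd, at a mean of 84.4 CPM and a log2 fold change of -2.06, lies in neither place. The orange bars go from -0.28 at 1 to 10 CPM to 0.22 at 1000 CPM or more.

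The fold changes of the abundant genes should be read against a shift with level. Of the 89 genes with a mean of at least 1000 CPM, 66.3% had a log2 fold change above 0 and the median was 0.22. It was 0.07 for the 932 genes from 200 to 1000 CPM, 0.04 from 50 to 200 CPM, and -0.28 for the 3787 genes from 1 to 10 CPM. The 6 abundant DEGs that rose are among the 89, and the part of this shift in their calls was not tested. With TMM factors computed over abundant genes alone, an alternative chosen after seeing the data, the median of the 89 was 0.21 and the 26 DEGs were called again.

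Genes of the B cell lineage led the DEGs that fell. Iglc2 (chromosome 16, 19198396 to 19200351), a constant region of the lambda light chain, had no read in the graft libraries and 52.2, 0 and 26.9 CPM in SP/CD127hi libraries. It was at least 31.3-fold lower in graft Tregs, against the floor of 3 reads per library (adjusted p = 4.61e-09). Its near-identical neighbours can share reads with it. Iglc3 had 0, 4.94 and 0 CPM in graft libraries against 15.7, 7.65 and 0.289 CPM (adjusted p = 0.25). Iglc1 went the other way, with 0, 7.41 and 0 CPM against 0.212, 0 and 0 CPM (adjusted p = 0.233). Ms4a1, which encodes CD20, had 0, 0 and 0.298 CPM against 64.1, 0 and 11 CPM (ratio of summed reads 318, interval 56.7 to 12597, adjusted p = 3.38e-08). Jchain, the joining chain of polymeric antibodies, had no read against 33.8, 6.12 and 0 CPM (at least 15.8-fold lower, adjusted p = 1.12e-05). In Iglc2, Ms4a1 and Jchain, 1 SP/CD127hi library was at 0 like the graft, so the groups overlapped, yet the calls held without any 1 library. By DESeq2 the adjusted p of Jchain was 0.102. With the 6 libraries alone the adjusted p was 0.483 for Iglc2 and 0.587 for Ms4a1 and Jchain. Siglecg, an inhibitory lectin of B cells, had no read against 5.31, 0.612 and 0 CPM (at least 2.34-fold lower, adjusted p = 0.0483, 0.638 without SP/CD127hi library 1 and 0.0842 to 0.127 without any 1 graft library).

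Ighd (chromosome 12, 113406604 to 113416324), the constant region of IgD, was read in every library. It had 43.6, 38.4 and 16.1 CPM in graft Tregs and 117, 127 and 164 CPM in SP/CD127hi Tregs, without overlap (log2 fold change -2.06 ± 0.47, adjusted p = 0.0335). Without graft library 3 it was -1.73 (adjusted p = 0.149). The call was also lost in the likelihood ratio test (adjusted p = 0.266), in DESeq2 (0.297), under the stricter filter (0.38) and with the 6 libraries alone (0.457). The neighbouring Ighm, the constant region of IgM, had 571, 1108 and 800.2 CPM against 939, 1203 and 1183 CPM (-0.42 ± 0.28, adjusted p = 0.759). The kappa constant region Igkc had 44.4, 126 and 185 CPM against 77.7, 119 and 15.6 CPM. Of 255 immunoglobulin genes tested, 2 were called, Ighd and Iglc2. Their sum was 675, 1371 and 1059 CPM in graft libraries and 1255, 1502 and 1407 CPM in SP/CD127hi libraries, beside a mean of 22195 CPM in the CD45+CD4- cells of tolerant spleens.

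The whole list of B cell markers did not follow its called member. Summed over 13 genes it was 15.2, 7.96 and 205 CPM in graft libraries and 128, 10.1 and 127 CPM in SP/CD127hi libraries, and 11222 CPM in CD45+CD4- cells of tolerant spleens. Ms4a1 was called, 8 of the 13 had a log2 fold change above 0, and the median was 0.48. Graft library 3 was high in Cr2 (69.7 CPM) and Bank1 (31.3 CPM), where the other graft libraries had no read, and it had 0.298 CPM of Ms4a1. Cd79a, a subunit of the B cell receptor, had 0, 6.31 and 0 CPM against 15.5, 2.75 and 12.2 CPM, and Pax5, which defines B cells, had no read in the graft and at most 1.22 CPM in the spleen. The part of B cell RNA in the DEGs was not tested.

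Another 3 DEGs that fell are known from myeloid cells and B cells, and held their calls without any 1 library. Serpinb1a, an inhibitor of granule proteases, had no read in graft Tregs and 12.5, 54.8 and 29.8 CPM in SP/CD127hi Tregs (at least 38.4-fold lower, adjusted p = 0.000162). Its mean was 0 in SP/CD127-/lo Tregs, 9.16 ± 4.6 CPM in SP/naive Tregs and 97.0 ± 149.5 CPM in DLN/CD127hi Tregs, an SD above the mean. Plek, the signalling protein pleckstrin, had no read against 13.8, 53.9 and 4.63 CPM (at least 28.6-fold lower, adjusted p = 0.000841). Mef2c, a transcription factor of B cells and myeloid cells, had 0, 0 and 0.298 CPM against 2.76, 10.4 and 6.66 CPM (ratio 65.5, interval 11.4 to 2623, adjusted p = 0.000981). In all 3 the groups did not overlap. Rnase6, an antimicrobial ribonuclease, had no read against 5.94, 0 and 11.9 CPM (at least 7.04-fold lower, adjusted p = 0.0449), and its call was lost without SP/CD127hi library 3 (0.116) or any 1 graft library (0.116 to 0.147).

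Macrophage and monocyte genes had no call in this fit. Of 14 tested, 11 had a log2 fold change below 0, with a median of -3.13, 4 stood apart with the graft lower and 0 with it higher. Over all genes tested, 5.34% stood apart with the graft lower and 3.18% with it higher. Csf1r, the receptor of macrophage colony stimulating factor, had no read against 16.8, 12.9 and 20.6 CPM (adjusted p = 0.13), and Cd68 0, 0 and 0.298 CPM against 15.7, 26.0 and 29.8 CPM (ratio 245, interval 43.6 to 9716, adjusted p = 0.122). DESeq2 gave adjusted p-values of 0.000559 for Csf1r and 0.00208 for Cd68. Lyz2, lysozyme of myeloid cells, went across the groups with 65.8, 0 and 427 CPM against 211, 144 and 55.9 CPM. The list summed to 77.7, 8.78 and 518 CPM in graft libraries and 286, 269 and 199 CPM in SP/CD127hi libraries.

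**Figure D3:**
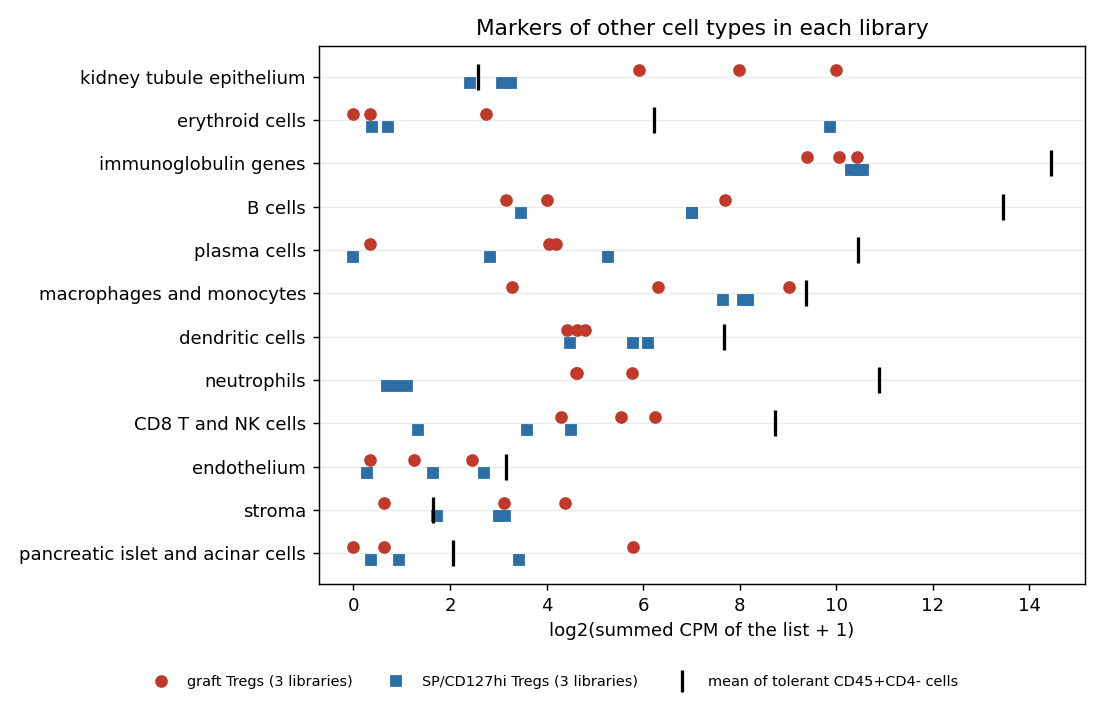
Summed CPM of marker lists of other cell types in each library, as log2(sum + 1). Circles are graft libraries, squares SP/CD127hi libraries, and the vertical mark is the mean of the CD45+CD4- cells of tolerant spleens. Kidney tubule and neutrophil markers are higher in all 3 graft libraries, the erythroid list is raised in 1 SP/CD127hi library, and the B cell, plasma cell and macrophage lists overlap between the groups.

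Single libraries set the calls of Hbb-bs and Gzma. Hbb-bs, beta globin, had 464 CPM in SP/CD127hi library 3 and at most 2.44 CPM in the other 5 libraries, so its call (adjusted p = 0.0371) rested on 1 library. Without it the log2 fold change was 1.66 (adjusted p = 0.899), and the call was also lost without graft library 2 (0.11) or 3 (0.0949). Hba-a1 (175 CPM), Hba-a2 (104 CPM) and Hbb-bt (188 CPM) were raised in the same library. Globin paralogs can share reads. The erythroid list summed to 935 CPM in that library and to at most 5.69 CPM in the other 5, and its part in other results was not tested. Gzma, a granule protease of cytotoxic cells, had 31.3 CPM in the same library and at most 0.306 CPM elsewhere (adjusted p = 0.0481, 1 without it, and 0.0526 to 0.157 without any 1 graft library). The neutrophil list differed through Mmp9, a matrix metalloprotease, with 53.6, 23.6 and 22.6 CPM in graft libraries against 0.212, 0 and 0.579 CPM (adjusted p = 0.258, DESeq2 0.0144), while S100a8 and S100a9, which define neutrophils, had no read in graft libraries. The list of pancreatic islet and acinar markers summed to 0.542, 54.6 and 0 CPM in graft libraries and 9.76, 0.918 and 0.289 CPM in SP/CD127hi libraries. In graft library 2 these reads came from 1 member, and Ins1 and Ins2 had no read in graft libraries. Reads were aligned to the mouse genome, and pig RNA was not analysed here.

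The remaining 5 DEGs that fell have no common lineage. Mapk11, the p38 beta kinase, had 0, 0.823 and 0 CPM in graft Tregs and 23.8, 23.6 and 77.6 CPM in SP/CD127hi Tregs (ratio of summed reads 142, interval 48.4 to 693, adjusted p = 0.0481). Tmem185a had no read against 33.3, 22.6 and 56.2 CPM (at least 44.3-fold lower, adjusted p = 0.0334). Naf1, an assembly factor of small nucleolar ribonucleoproteins, had 0, 0.274 and 0 CPM against 3.18, 51.4 and 72.1 CPM (ratio 404, interval 72.1 to 15996, adjusted p = 0.0483). Iqsec1, an exchange factor for ARF GTPases, had 0, 0.274 and 0 CPM against 28.0, 5.51 and 30.4 CPM (ratio 239, interval 42.4 to 9457, adjusted p = 0.0483), and Gcsh, of the glycine cleavage system, 0, 0 and 0.298 CPM against 44.8, 25.7 and 0.289 CPM (ratio 277, interval 49.3 to 10972, adjusted p = 0.0449).

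Except for Gcsh, the groups of these genes did not overlap. None of their calls held in every fit without 1 library. Without graft library 1 the adjusted p was 0.13 for Tmem185a, 0.184 for Gcsh and 0.248 for Mapk11, Iqsec1 and Naf1. That library had no read of these 5 genes, and without it their fitted log2 fold changes were -9.76 to -6.50, against -9.77 to -7.02 with it, on a scale that depends on the prior count. Other single libraries whose removal ended these calls, in graft and spleen, gave 0.051 to 0.177. In SP/CD127-/lo Tregs the means were 28.9 ± 16.2 CPM for Tmem185a, 25.7 ± 23.7 CPM for Gcsh and 23 ± 15.8 CPM for Naf1, so these genes were read in both splenic Treg subsets of tolerant mice.

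Some genes with well separated groups came close to the threshold. Cd3g, a chain of the T cell receptor complex, had 2221, 3329 and 1898 CPM in graft Tregs and 1017, 1307 and 827 CPM in SP/CD127hi Tregs (1.24 ± 0.31, adjusted p = 0.06). SP/CD127-/lo Tregs had 2824 ± 996 CPM of it, above SP/CD127hi Tregs (SP/CD127hi minus SP/CD127-/lo -1.43, adjusted p = 0.0107). This comparison shares the SP/CD127hi libraries. Arhgdib, a regulator of small GTPases in leukocytes, had 2195, 2291 and 2118 CPM against 939, 1239.6 and 766 CPM (1.17 ± 0.29, adjusted p = 0.0654). Ftl1, ferritin light chain, had 818, 1195 and 902 CPM against 404, 436 and 266 CPM (1.40 ± 0.38, adjusted p = 0.122), and Srsf7, a splicing factor, 1632, 1650.0 and 1479.8 CPM against 778, 802 and 682 CPM (1.07 ± 0.29, adjusted p = 0.122). On the other side, Zfp746, a zinc finger repressor, had 1.08, 3.57 and 3.28 CPM against 65.6, 106 and 93.2 CPM (-5.04 ± 1.27, adjusted p = 0.0662).

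Gene lists were described by counts and medians, without a test, since they were drawn up with earlier results known. Over all genes tested the median log2 fold change was 0, with 3.18% of genes standing apart higher in the graft and 5.34% lower. Among the 4102 genes with a mean of at least 50 CPM the median was 0.05, with 10.6% apart higher and 8.34% apart lower.

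**Figure D4:**
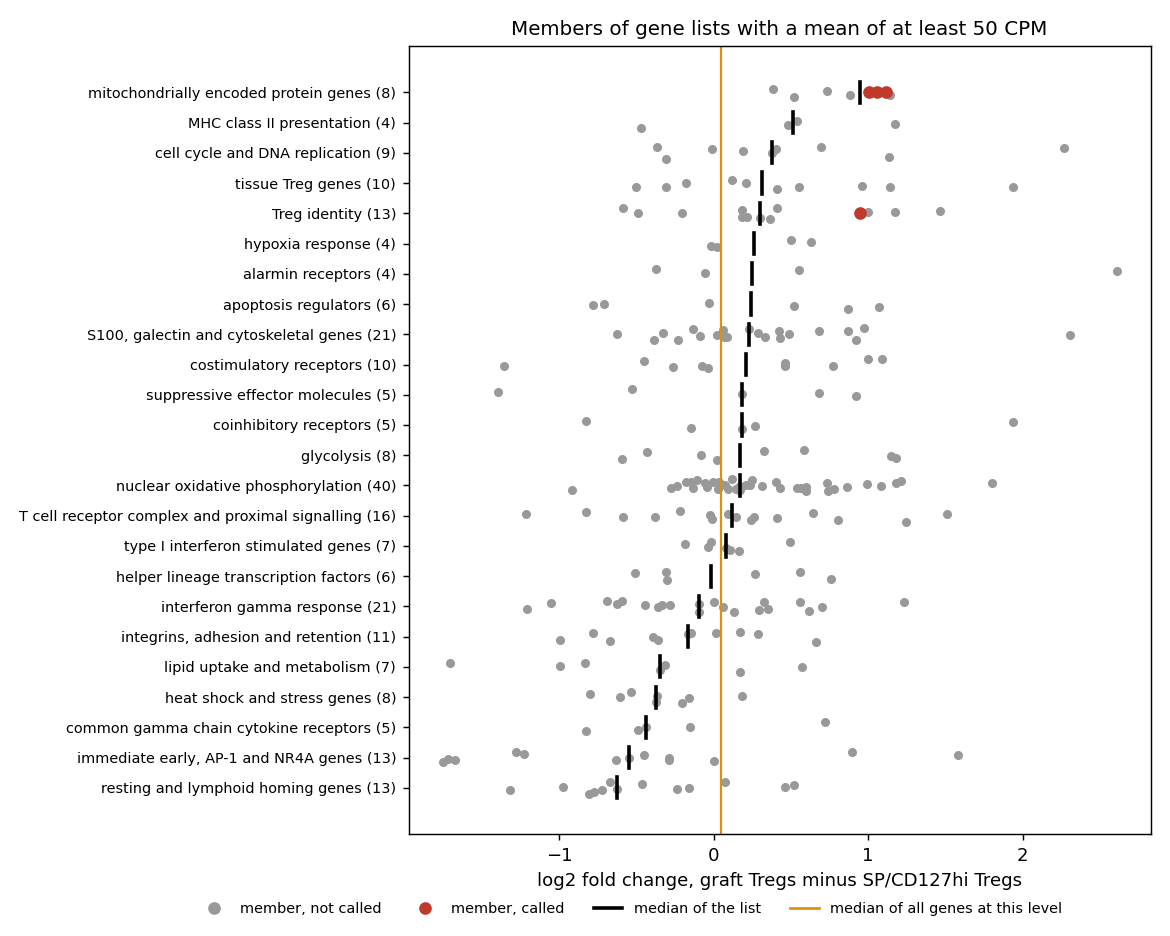
Log2 fold changes, graft Tregs minus SP/CD127hi Tregs, of list members with a mean of at least 50 CPM (their number in brackets), for pathway lists with at least 4 such members. Lists of other cell types and the ribosomal protein genes are not drawn. Grey points are members that were not called, red points members that were, black bars list medians, and the orange line is the median of all genes at that level, 0.05. Among the lists drawn, mitochondrial genes have the highest median, 0.94, and genes of resting and recirculating T cells the lowest, -0.62.

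Genes of Treg identity had a median of 0.26, with 11 of 14 above 0 and Ikzf2 called. Tnfrsf18, the receptor GITR, had 416, 734 and 356 CPM against 368, 241 and 146 CPM (0.996, adjusted p = 0.627), and Gpr83, a receptor of Tregs, 81.2, 93.6 and 136 CPM against 30.6, 8.26 and 73.8 CPM, without overlap (1.46, adjusted p = 0.759). Il2ra, the alpha chain of the IL-2 receptor, had 326, 237 and 262 CPM against 443, 319 and 395 CPM (-0.49), and Ctla4, the inhibitory receptor, 935, 486 and 704 CPM against 805, 503 and 565 CPM (0.18), and both overlapped between the groups.

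Of 20 tissue Treg genes, 0 were called and the median was -0.03, and among the 10 abundant ones it was 0.31. Id2, a repressor of E proteins, had 1108, 1181 and 388 CPM against 619.6, 329 and 264 CPM (1.14, unadjusted p = 0.00908, adjusted p = 0.303). Ccr8, a chemokine receptor of tissue Tregs, had 70.1, 43.4 and 52.4 CPM against 29.5, 5.51 and 0 CPM, and Batf, an AP-1 factor, 87.5, 223 and 89.1 CPM against 85.8, 60.0 and 59.9 CPM, both apart without a call (adjusted p = 0.759 each). Areg, amphiregulin of tissue repair, had 39.0, 5.21 and 0 CPM against 19.7, 9.49 and 22.9 CPM, and Gata3 181, 154 and 273 CPM against 281, 224 and 248 CPM. At an unadjusted p under 0.05, 1 of the 20 was higher and 0 lower.

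Genes of resting and recirculating T cells had a median of -0.65, with 12 of 16 below 0 and 0 called. The 4 that stood apart with the graft lower were Il6ra, the IL-6 receptor (82.1, 22.2 and 160 CPM against 188, 181 and 287 CPM, -1.31, adjusted p = 0.546), Bach2 (75.6, 42.0 and 69.4 CPM against 118, 128 and 122 CPM, -0.98), Foxo1 (206, 155 and 199 CPM against 405, 301 and 270 CPM, -0.80) and Tcf7 (248, 123 and 204 CPM against 271, 249 and 396 CPM, -0.67), the last 3 being transcription factors of quiescent T cells. The 1 that stood apart with the graft higher was Cd27, a costimulatory receptor (623, 714 and 579 CPM against 490, 485 and 418 CPM, 0.46, adjusted p = 0.759). Ccr7, the chemokine receptor of lymph node entry, had 67.4, 17.8 and 146 CPM against 104, 61.5 and 53.0 CPM (0.08), and S1pr1, the receptor for egress into blood, 189, 102 and 229.7 CPM against 260.0, 191 and 437 CPM (-0.77). Graft library 2 was the lowest library in both. Across settings the median of this list went from -0.82 without graft library 1 to -0.30 without SP/CD127hi library 3.

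Immediate early genes, which follow receptor signals or handling of cells within minutes, had a median of -0.63, with 22 of 29 below 0, 0 called, 7 apart with the graft lower and 0 apart with it higher. Ier5 had 105, 107 and 86.4 CPM against 210.1, 299 and 443 CPM (-1.67, unadjusted p = 0.00292, adjusted p = 0.255, DESeq2 adjusted p = 0.0423). Dusp2, a phosphatase of MAP kinases, had 95.1, 69.7 and 38.7 CPM against 193, 163 and 330.0 CPM (-1.75, adjusted p = 0.276). Fos, of the AP-1 complex, had 2.71, 0 and 0 CPM against 19.1, 50.8 and 19.97 CPM (-4.98, adjusted p = 0.25), and Zfp36, which destabilizes cytokine RNA, 33.3, 27.2 and 40.8 CPM against 68.8, 110 and 155 CPM (-1.72, adjusted p = 0.442). The others apart were Junb, Jund and Nr4a1. Rgs1 (1368, 1051 and 673 CPM against 712, 611 and 342 CPM) and Rgs2 (542, 359 and 74.8 CPM against 156, 101 and 69.8 CPM) had the highest values of the list next to Ier3, at 0.89 and 1.58. Heat shock and stress genes had a median of -0.44 with 12 of 16 below 0 and 0 called.

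The receptor complex of T cells gave a median of 0.12, with 9 of 16 above 0 and 0 called. Cd2, an adhesion receptor, had 895, 1493 and 795 CPM against 563, 409 and 146 CPM (1.51, adjusted p = 0.15), and Cd3d 1356, 2354 and 1348 CPM against 997, 1107 and 791 CPM (0.80, adjusted p = 0.267), while the kinase Zap70 had 101, 26.6 and 80.1 CPM against 172, 137 and 172 CPM (-1.21, adjusted p = 0.709). All 3 stood apart, in opposite directions. Among receptors of the common gamma chain family, 7 of 9 were below 0 with a median of -0.49. Il2rg, the shared chain, had 593, 693 and 587 CPM against 541, 332 and 263 CPM (0.72, adjusted p = 0.616), and Il2rb 245, 170 and 173 CPM against 345, 318 and 381 CPM (-0.83, adjusted p = 0.738), and both stood apart.

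Genes of the interferon gamma response were spread around 0, with a median of 0.01, 13 of 25 above 0, 0 called, 4 apart higher and 3 apart lower. Ifngr1, the ligand-binding chain of the receptor, had 1422, 1182 and 1056 CPM against 615, 463 and 481 CPM (1.23, unadjusted p = 0.0121, adjusted p = 0.328). The transporter gene Tap1 had 254, 72.4 and 184 CPM against 358, 308 and 389.9 CPM (-1.05, adjusted p = 0.543). Members of the list thus held values of both signs. Of 22 type I interferon stimulated genes, 0 were called and the median was -0.12.

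Cytotoxic genes had 2 DEGs of opposite direction, Klrk1 and Gzma, among 16, with a median of -0.01. Ctsw, cathepsin W of cytotoxic cells, had 87.5, 44.5 and 67.9 CPM against 1.91, 18.7 and 0 CPM (3.28, adjusted p = 0.191, DESeq2 0.0112), and Nkg7, of cytotoxic granules, 136, 117 and 138 CPM against 51.8, 106 and 0 CPM (1.31, adjusted p = 0.519), both apart. Prf1, perforin, had no read against 19.5, 12.2 and 0 CPM (adjusted p = 0.158, DESeq2 0.0351). Markers of CD8 T and NK cells summed to 75.3, 18.7 and 45.6 CPM in graft libraries and 21.9, 1.53 and 11 CPM in SP/CD127hi libraries, with Cd8a at 0.298 CPM or less and Ncr1 at 0.289 CPM or less in all 6. The part of such cells in these values was not tested.

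Suppressive molecules and checkpoint receptors gave 0 calls among 14 and 11 genes, with medians of -0.11 and 0.18. Il10 had 36.8, 8.51 and 0 CPM against 12.1, 63.7 and 50.9 CPM (adjusted p = 0.769), Lgals1, galectin 1, 1039, 822 and 835 CPM against 514, 605 and 559 CPM, apart without a call (0.68, adjusted p = 0.694), and Tigit 76.6, 368 and 195 CPM against 69.8, 97.0 and 0 CPM (1.94, adjusted p = 0.579). Among 10 costimulatory receptors Tnfrsf4, OX40, had 1659.5, 2139 and 503 CPM against 1001, 542 and 479 CPM (1.09, unadjusted p = 0.00827, adjusted p = 0.294), with graft library 3 within the range of the spleen. Chemokine receptors had 7 of 14 above 0, and Cxcr6 had 48.7, 109 and 6.85 CPM against 1.7, 25.4 and 0 CPM (2.61, adjusted p = 0.351).

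The lists of ribosomal, cell cycle, glycolysis, lipid and hypoxia genes had no call. Cytosolic ribosomal protein genes had a median of -0.27, with 67 of 84 below 0, and their sum was 51717, 52706 and 45382 CPM in graft libraries and 42132, 69104 and 72788 CPM in SP/CD127hi libraries, which overlapped. Cell cycle genes had a median of 0.55 with 14 of 22 above 0. It was 1.14 without SP/CD127hi library 3 and 0.08 without graft library 1, in which Mki67 had 174 CPM and Top2a 202 CPM against 20.03 to 62 CPM in the other graft libraries. Glycolysis genes had a median of 0.17, with 4 of 18 apart higher and 1 apart lower, against 3.18% and 5.34% of all genes. Those apart included the glycolytic enzyme Gapdh (181, 215 and 161 CPM against 76.8, 80.2 and 94.4 CPM, 1.15, adjusted p = 0.716) and, with the graft lower, the hexokinase Hk1 (3.52, 23.9 and 10.4 CPM against 45.9, 48.4 and 91.5 CPM, -2.29, adjusted p = 0.646). Lipid genes had a median of -0.50 with 17 of 23 below 0, and hypoxia genes 0.44 with 9 of 14 above 0, where Egln1, an oxygen sensor, had 5.69, 0.823 and 6.26 CPM against 53.1, 20.8 and 70.9 CPM (-3.49, adjusted p = 0.322, DESeq2 0.00862).

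Set beside the other splenic Tregs, the counts of calls depended on the reference. With SP/CD127-/lo Tregs as the reference, 21 genes were called in graft Tregs (0.0829% of genes tested, with 0.0552% higher) and 23 in SP/CD127hi Tregs (0.0907%, with 0.0592% higher). With SP/naive Tregs as the reference, the numbers were 33 (0.13%, with 0.075% higher) and 5 (0.0197%, with 0.0118% higher). These comparisons share libraries with each other. In those comparisons, mt-Cytb was higher in graft Tregs than in SP/CD127-/lo Tregs (0.74, adjusted p = 0.0421) and SP/naive Tregs (1.69, adjusted p = 6.83e-14), and Kap likewise (adjusted p = 1.06e-05 and 3.96e-06). Ikzf2 differed from SP/naive Tregs (1.08, adjusted p = 0.00353), with a log2 fold change of 0.36 from SP/CD127-/lo Tregs (adjusted p = 0.847). Ms4a1, Serpinb1a and Mef2c, which had no more than 1 read in graft libraries, were called higher in SP/CD127hi than in SP/CD127-/lo Tregs (adjusted p = 2.57e-08, 0.000302 and 0.00144), whose own means were 0.0839, 0 and 0.0977 CPM.

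**Figure D5:**
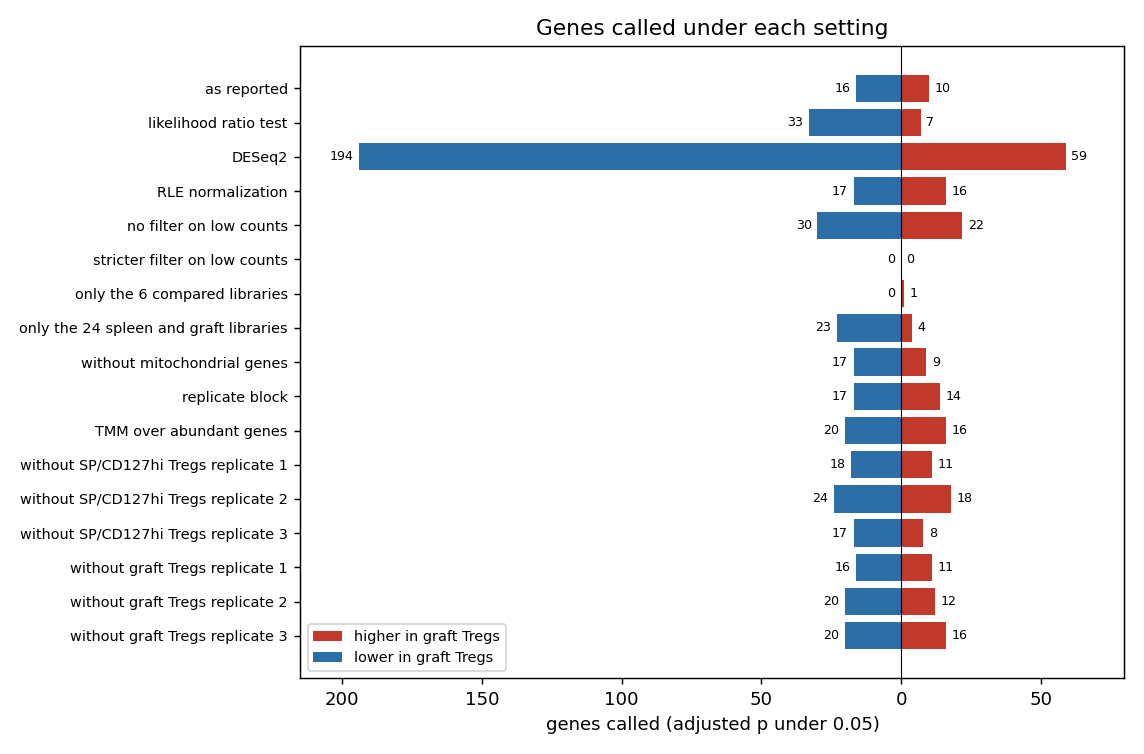
Number of genes called at an adjusted p under 0.05 under each setting, higher in graft Tregs to the right and lower to the left. As reported there are 10 and 16, with the stricter filter 0 and 0, with the 6 libraries alone 1 and 0, and with DESeq2 59 and 194.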

How the data were processed

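RNA was amplified from few sorted cells with SMART-Seq v4, made into Nextera XT libraries and sequenced as read pairs, those of DLN on a MiSeq and those of spleen and graft on a NextSeq 500. The authors trimmed reads with Trim Galore, checked them with FastQC and aligned them with STAR to mm10 with the EGFP sequence added, as the labels and methods state. The deposited files hold gene counts as the aligner gave them, without normalization. The unstranded column was used, since both strands held about equal shares.

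Counts of 31054 features, 43 of them without a symbol, in 33 libraries (11 subsets of 3) were fitted in 1 model with a mean per subset. The 25347 genes that reached 1 CPM in any library were tested. edgeR 4.0.16 (limma 3.58.1, R 4.3.3) gave TMM factors, the quasi-likelihood test and Benjamini-Hochberg adjusted p-values, called under 0.05. SE is the absolute log2 fold change divided by the square root of F. Where a group had no read, folds were bounded against 3 counts per library. Where it had 1 to 3 counts at most in a library, the ratio of summed counts is given with its exact 95% interval. Such bounds and intervals cover counting error only, and fitted fold changes of these genes depend on the prior count. Positions are from GENCODE vM21 (GRCm38). Permutation tests, sums and figures used Python 3.11.15, numpy 2.4.6, pandas 2.3.3 and scipy 1.17.1.

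The genes named are the markers and gate genes, called genes up to 20 per direction, up to 10 uncalled genes per direction with the smallest unadjusted p, groups apart and a mean of at least 20 CPM in 1 group, and members of 40 gene lists as examples with their largest, smallest or defining values. Members and lists were chosen with earlier results of these data known. Some list members, such as Gata3, Areg and Cr2, were named after their values were seen. Alternatives were the likelihood ratio test, DESeq2 1.42.0, other normalizations, filters and sets of libraries, a replicate block, and leaving out each library. On simulated counts for this comparison (20977 genes, 200 changed), 58 were recovered, 3 of 100 changed 4-fold and 55 of 100 changed 16-fold, with 2 false calls.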

Additional observations from a re-analysis of the deposited data

How the results depend on the processing

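The number of DEGs depended on the model and filter. Against 26 as reported (10 higher and 16 lower in graft Tregs), the likelihood ratio test called 40 (33 lower), DESeq2 253 (59 higher, 194 lower) and no filter on low counts 52 (22 higher, 30 lower). The stricter filter called 0 (0 higher, 0 lower) and the 6 libraries alone 1 (1 higher, 0 lower), where edgeR gave 1363 (10.4% of 13110) and 1042 genes (7.50% of 13886) at an unadjusted p under 0.05. RLE factors called 33 (16 higher, 17 lower), TMM over abundant genes, chosen after seeing the data, 36 (16 higher, 20 lower), and the 24 spleen and graft libraries 27 (4 higher, 23 lower). The causes were not tested. Without 1 library the total was 25 to 42, the higher calls 8 to 18 and the lower calls 16 to 24, and the largest counts came without SP/CD127hi library 2. Shared with the reported 26 were 15 genes in the likelihood ratio test, 14 in DESeq2 and 12 with the 24 spleen and graft libraries. Without 1 library, the log2 fold change of Il1rl1 went from -0.37 (graft library 1 left out) to 0.90 (SP/CD127hi library 3), that of Klrg1 from -0.61 (graft library 3) to 0.29 (graft library 2), and that of Hbb-bs from -11.80 (graft library 1) to 1.66 (SP/CD127hi library 3). Deviations of same-numbered libraries from their group means correlated at 0.0329, 0.0635 and 0.0576 over 4102 genes, so the numbers were not taken to pair samples, although each library correlated best with its own number. With the replicate block 31 genes were called (14 higher, 17 lower), 18 of them among the 26. The calls lost there were those of Klrk1, Ccl8, Hbb-bs, Rnase6, Gcsh, Gzma, Iqsec1 and Naf1 (adjusted p = 0.0684 to 0.87). On simulated counts, 3 of 100 genes changed 4-fold were called, so most changes of that size were missed there. The simulated rate was not split by level and need not hold for the most abundant genes. In the data, the 6 DEGs with a mean of at least 1000 CPM were called at log2 fold changes of 0.85 to 1.11.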
